A study of Mus musculus with 44 samples.

Results

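Retained-intron transcripts are models of a gene in which an intron, or part of one, stays in the RNA. They were taken as the transcripts whose type is retained_intron in the GENCODE vM21 annotation and whose estimated count averaged 10 or more over the 44 libraries. This gave 2650 transcripts in 1940 genes, out of 15862 of that type and 94080 transcripts in all. Every value below is about these 2650 transcripts unless another set is named.

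The transcripts were measured in biopsies of the gastric corpus mucosa of 13-month-old BalbC mice. KO mice lacked Atp4b, the H+/K+ATPase beta subunit of the acid pump, in all cells, and WT mice carried the gene. Mice received netazepide (NTZ, named YF in the labels), which blocks the gastrin receptor, or its vehicle PEG, every other week. There were 13 KO/PEG, 11 KO/NTZ, 11 WT/PEG and 9 WT/NTZ libraries of polyadenylated RNA, and the comparisons ask what the loss of the acid pump and the blocking of gastrin change.

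Most introns are removed from a transcript before it leaves the nucleus. A transcript that keeps an intron is often held in the nucleus or carries an early stop codon, and then the messenger RNA can be destroyed by nonsense-mediated decay, so that retention can lower the protein output of a gene. Genes of splicing factors are known for introns of this kind, through which several of them limit their own expression. A biopsy also holds several cell types, and fewer cells of a type and less RNA per cell cannot be told apart in these data.

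The estimated counts summed to between 6065084 and 21945124 per library. A count of 3, taken as the smallest signal of a library, was worth between 0.137 and 0.495 CPM, a count divided by the library total and scaled alike in each library (for the levels below, the total was first multiplied by the TMM factor of the library). Atp4b separated the genotypes, with 2141 CPM or more in each WT library and 40.5 CPM or less in each KO library. Summed marker genes of parietal cells were between 6023 and 15387 CPM in WT and between 1960 and 7210 CPM in KO libraries, and those of neck cells and spasmolytic polypeptide-expressing metaplasia (SPEM) between 1787 and 2713 CPM in WT and between 5199 and 57982 CPM in KO libraries. Those of chief cells were between 61600 and 209246 CPM in WT and between 2429 and 35013 CPM in KO libraries, and those of enterochromaffin-like cells had a median of 1759 CPM in KO/PEG and of 698 CPM in KO/NTZ mice. Marker genes of squamous epithelium had a median of 0.697 CPM in WT/PEG, 376 CPM in WT/NTZ, 20.2 CPM in KO/PEG and 87.3 CPM in KO/NTZ libraries. Single libraries lay between 0.354 CPM (WT/PEG) and 1888 CPM (WT/NTZ). The part of this mixture of cells in the results below was not tested. No pair of libraries within a group was alike within sampling noise, and the lowest chi-square per degree of freedom over 224 pairs was 12.3.

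One library stood apart. In KO/PEG replicate 9, mitochondrial transcripts held 14.4% of the counts, against 1.85% to 7.80% in the other KO libraries, and the median share of a retained-intron transcript in its gene was 9.62%, against 2.997% to 7.73%. It was the highest of the 13 KO/PEG libraries for 456 of the 657 transcripts that are reported below as lower in share in KO/PEG, and the lowest for 320 of the 844 reported as higher. For a number of the transcripts that it moved, results are given with and without it.

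The transcripts differed widely in form. They were between 164 and 19300 bases long (median 986), with a mean count between 10.0026 and 5908 (median 29.8), and the transcript of this type just under the minimum had 9.99883. Those with most counts were few, since the top 10 held 13.3% of all counts of the set. A transcript held a median of 7.90% of its gene's counts over all libraries. In 512 genes there were at least 2 such transcripts, with a maximum of 6, and 2641 lay in protein-coding genes. By structure, 1062 contained at least 1 whole intron of another transcript of the gene. Of the rest, 1072 had an exon, not always the first, that began inside an intron and continued into its downstream exon. In 322 an exon, not always the last, ended inside an intron, 163 had both, and 31 had none of these.

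By position, 778 ended within 200 bases of the 3′ end of the gene's longest coding transcript and began further in, 409 began within 200 bases of its 5′ end and ended further in, 264 ran from end to end and 1189 were internal. The remaining 10 had no coding transcript to compare with. These positions matter for every comparison below. For 335 transcripts no base was private, that is, outside the exons of all other transcripts of the gene, and 1874 had a private stretch of at least 75 bases, the length of a read. The reads of a gene were divided among its transcripts by estimation, so the value of a transcript with few private bases is less certain. Private bases of 138 transcripts lay over a gene on the opposite strand and those of 48 over another gene on the same strand.

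The introns kept whole were short. There were 1729 distinct ones, with a median length of 239 bases, and 1622 of them lay between coding exons. Among the introns of the longest coding transcripts of the same genes, the 1455 kept by a retained-intron transcript had a median of 222 bases, and the 24206 others had a median of 881 bases. An intron of 300 bases or fewer made up 59.6% of the first set and 27.4% of the second. The ends were those of ordinary introns, with GT at the start and AG at the end in 1696 (98.1%), GC and AG in 21 and AT and AC in 1. Their median GC content was 52.8%, and that of the 50 bases on either side was 55%.

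Kept introns of 9 genes are printed because the transcripts that hold them carry the results below: the one with most counts (Gapdh), 3 of those that gained share of their gene in KO mice near the 3′ end (Copa, Ephb3, Agrn), splicing genes that gained (Hnrnpk) or lost share (Clk1, Clk4, Prpf38b), and one at 0 in all KO/NTZ libraries (Maged1). Each lies between coding exons. The lines give the coding strand from 5′ to 3′ in GENCODE vM21 transcript sequence, with 12 exon bases on either side. Capitals mark the first and last pair of bases of the intron. In the GRCm38 genome they lie at chr6:125162394-125162477 (minus strand, Gapdh), chr1:172114834-172115022 (plus, Copa), chr16:21220543-21220646 (plus, Ephb3), chr4:156168821-156168902 (minus, Agrn), chr13:58393775-58393852 (minus, Hnrnpk), chr1:58417180-58417266 (minus, Clk1), chr11:51275579-51275769 (plus, Clk4), chr3:108907848-108907931 (minus, Prpf38b) and chrX:94537756-94537973 (minus, Maged1).
Gapdh: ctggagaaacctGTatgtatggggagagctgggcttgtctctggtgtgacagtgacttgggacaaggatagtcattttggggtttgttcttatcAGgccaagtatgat
Copa: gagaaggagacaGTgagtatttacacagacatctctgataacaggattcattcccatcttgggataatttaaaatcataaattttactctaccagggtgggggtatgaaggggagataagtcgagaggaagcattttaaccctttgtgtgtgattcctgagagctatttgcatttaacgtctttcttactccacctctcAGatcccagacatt
Ephb3: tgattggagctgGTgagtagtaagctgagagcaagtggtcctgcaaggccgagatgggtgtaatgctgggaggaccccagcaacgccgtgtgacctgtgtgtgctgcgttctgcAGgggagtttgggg
Agrn: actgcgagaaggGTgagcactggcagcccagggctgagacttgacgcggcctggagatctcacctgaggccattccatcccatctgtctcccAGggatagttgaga
Hnrnpk: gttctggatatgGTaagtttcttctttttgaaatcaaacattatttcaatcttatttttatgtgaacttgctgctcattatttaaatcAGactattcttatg
Clk1: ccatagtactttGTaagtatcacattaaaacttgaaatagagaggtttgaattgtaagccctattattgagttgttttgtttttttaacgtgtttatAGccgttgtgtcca
Clk4: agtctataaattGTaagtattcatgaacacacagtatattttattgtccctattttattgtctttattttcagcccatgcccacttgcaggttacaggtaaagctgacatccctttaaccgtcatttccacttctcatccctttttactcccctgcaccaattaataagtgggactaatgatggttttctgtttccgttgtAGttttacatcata
Prpf38b: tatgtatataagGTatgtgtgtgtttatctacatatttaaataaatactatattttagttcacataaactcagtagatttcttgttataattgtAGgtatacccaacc
Maged1: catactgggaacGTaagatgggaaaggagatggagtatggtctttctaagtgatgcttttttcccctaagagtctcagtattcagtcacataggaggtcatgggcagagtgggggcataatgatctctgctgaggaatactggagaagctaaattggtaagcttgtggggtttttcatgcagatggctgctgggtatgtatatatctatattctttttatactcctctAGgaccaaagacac
All 9 begin with GT and end with AG. They are between 78 bases (Hnrnpk) and 218 bases (Maged1) long. The intron of Prpf38b has a GC content of 22.6% and that of Agrn 62.2%.

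In all counts of a library, the retained-intron transcripts had a larger part in KO than in WT mice. Their share of all counts was 1.29% ± 0.11 (SD, n = 11) in WT/PEG, 1.38% ± 0.22 (SD, n = 9) in WT/NTZ, 2.67% ± 0.49 (SD, n = 13) in KO/PEG and 2.93% ± 0.51 (SD, n = 11) in KO/NTZ mice. The libraries ranged from 1.16% to 1.49% (median 1.25%), from 1.13% to 1.75% (median 1.28%), from 2.19% to 3.48% (median 2.52%) and from 2.20% to 3.85% (median 2.73%) in the same order. No KO library overlapped a WT library, while the ranges of NTZ and PEG mice overlapped within each genotype. The ratio of the means was 2.06 for KO/PEG to WT/PEG, 2.12 for KO/NTZ to WT/NTZ, 1.10 for KO/NTZ to KO/PEG and 1.07 for WT/NTZ to WT/PEG. These shares are descriptions, and no test was run on them.

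Each place in the gene contributed, but not equally. Transcripts near the 3′ end held 0.417% of the counts in WT/PEG and 1.30% in KO/PEG, internal ones 0.593% and 1.003%, those near the 5′ end 0.204% and 0.255%, and those from end to end 0.0788% and 0.101%. Without the transcripts near the 3′ end the ratio of KO/PEG to WT/PEG was 1.55. Part of it also lay in the genes, since the 1940 genes together held 15.5% of the counts in WT/PEG and 20.2% in KO/PEG. Within the counts of these genes, retained-intron transcripts held 8.38% ± 1.02 (SD, n = 11) in WT/PEG and 13.1% ± 1.85 (SD, n = 13) in KO/PEG mice, a ratio of 1.57. Other noncoding models were also higher in KO/PEG, with nonsense-mediated decay transcripts at 1.21% in WT/PEG and 1.97% in KO/PEG and processed transcripts at 1.92% and 2.99%.

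**Figure D1:**
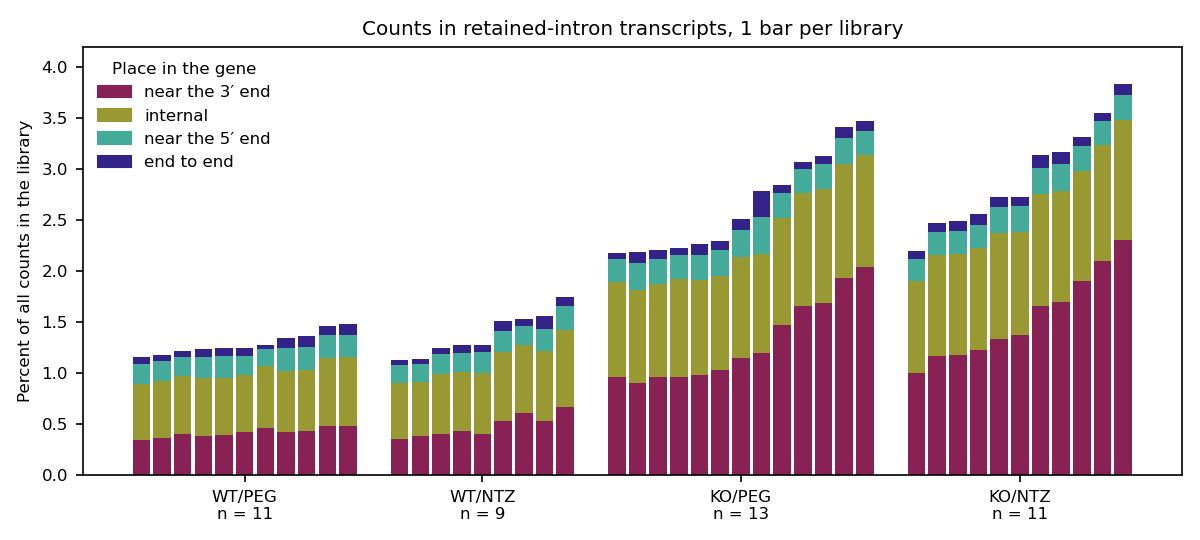
Percent of all counts of a library in retained-intron transcripts, with 1 bar per library sorted within its group and colours for the place of the transcript in its gene. Bars lie between 1.13% and 1.75% in WT and between 2.19% and 3.85% in KO libraries, and the part near the 3′ end is the one that differs most between genotypes.

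A measure from other genes moved with these shares. In 146 genes that hold none of the 2650 transcripts but do have shorter models at both ends, the percentage of counts in models near the 3′ end, among the counts of models near either end, was taken as the 3′ weight of a library. It was 67.9 ± 1.88 (SD, n = 11) in WT/PEG, 69.4 ± 2.69 (SD, n = 9) in WT/NTZ, 81.2 ± 5.93 (SD, n = 13) in KO/PEG and 85.9 ± 4.03 (SD, n = 11) in KO/NTZ libraries. It ranged from 64.6 to 70.2 in WT/PEG and from 73.7 to 90.0 in KO/PEG, without overlap, so genotype and 3′ weight cannot be told apart across these groups. The 3 KO/PEG libraries of lowest weight, between 73.7 and 75.8, had 2.19% to 2.79% of their counts in retained-intron transcripts, and the 3 of highest weight, between 87.7 and 90.0, had 3.08% to 3.48%. The WT library of highest weight, WT/NTZ replicate 4 at 74.1, had 1.54%. The KO/PEG library at 73.7 was replicate 9, with 2.79%.

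**Figure D2:**
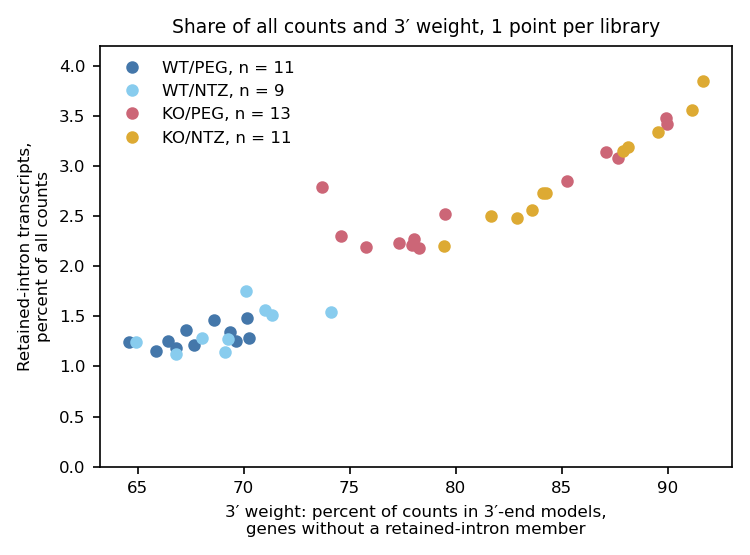
Percent of all counts in retained-intron transcripts (vertical axis) against the 3′ weight of the library, measured in 146 other genes (horizontal axis, percent), with 1 point per library coloured by group. WT libraries end at a weight of 74.1 and KO libraries begin at 73.7, and where the weights meet there are the KO/PEG replicate 9 library at 2.79% and a WT/NTZ library at 1.54%.

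The share of a transcript in its gene was then tested for each transcript, as the log2 odds of its count against the other counts of the gene, with limma over 18654 transcripts of which 2577 were retained-intron transcripts. The other 73 did not pass the filters on gene counts and on the number of transcripts in the gene, and were not tested. Calls are those with a Benjamini-Hochberg adjusted p under 0.05. In KO/PEG versus WT/PEG, 844 retained-intron transcripts (32.8%) were higher and 657 (25.5%) lower. The background was 26% higher and 27% lower (53% in all) over all transcripts tested. The tool diffSpliceDGE of edgeR called 607 of them. Of the transcripts named below, those of Gapdh, Eef1g, Slc2a3, Plch1, Hba-a1, Slc15a3, Krt7, Rps19, Cox7b, Gnb2, Clk1, Clk4, Srsf3 (both), Ccnl2, Prpf38b, Xbp1, Manf, Eno2, Rbm5 (ENSMUST00000183307) and Ndufs1 (ENSMUST00000185827) were called by limma and not by diffSpliceDGE. The median difference in mean share was 16.5 percentage points among the 844 and -3.67 among the 657. In 228 of the first every KO/PEG library was above every WT/PEG library, and in 50 of the second every one was below. Such separation was not counted over all transcripts tested, so neither count has a background. Both counts also depend on KO/PEG replicate 9, the highest KO/PEG library for 456 of the 657 and the lowest for 320 of the 844. They are not given here without it. Without KO/PEG replicate 9, 850 transcripts were called higher and 740 lower.

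The direction followed the place in the gene. Of 735 transcripts near the 3′ end, 60.5% were higher and 6.26% lower, with a median log2 odds difference of 1.79. Near the 5′ end 9.43% of 403 were higher and 47.1% lower (median -0.92), and from end to end 6.54% of 260 were higher and 35.4% lower (median -0.86). The 1172 internal ones were divided, with 29.3% higher and 28.0% lower (median -0.14). Among transcripts of other types, 45.6% were higher and 14.0% lower near the 3′ end and 18.2% higher and 36.2% lower near the 5′ end, while the internal ones were more often lower, with 25.03% higher and 37.2% lower (median -0.64). Most of these were protein-coding. Processed transcripts alone had 67% higher and 6.6% lower near the 3′ end, and 32.4% higher and 30.1% lower among internal ones. Near the 5′ end 18.1% of them were higher and 37.8% lower. The pattern was therefore not particular to retained-intron transcripts. By diffSpliceDGE 39.3% of the retained-intron transcripts near the 3′ end were higher and 13.4% of those near the 5′ end lower. Transcripts with an exon that begins inside an intron were higher in 49.0% and lower in 15.9%. Those with an exon that ends inside an intron were higher in 15.7% and lower in 42.6%, and those with a whole intron in 22.9% and 30.04%.

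The same contrast was seen inside single genes. In 39 genes with retained-intron transcripts at both ends, the log2 odds difference was greater for the 3′ than for the 5′ transcript in 38, with medians of 0.92 and -1.37. In genes with a 3′ and an internal transcript it was greater for the 3′ one in 98, or 83.8% (medians 1.26 and -0.44), and in 58 genes with a 3′ and an end-to-end transcript in 47. A fit with the 3′ weight as an added term was run once these values were known, and in this fit with the covariate 244 were higher and 105 lower for genotype in PEG mice, against 8.23% higher and 4.73% lower (13% in all) over all transcripts, and 92 higher and 62 lower were called in both fits. In that fit 5.58% of the transcripts near the 3′ end were higher and 3.27% lower, and of the internal ones 15.6% were higher and 5.03% lower, beside 16.1% and 8.42% of the internal transcripts of other types.

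**Figure D3:**
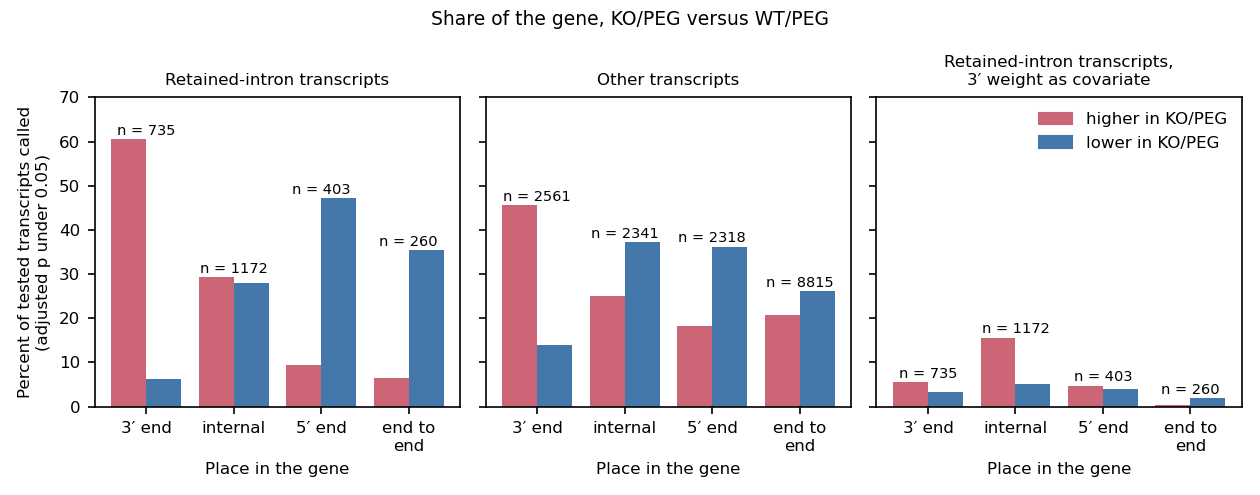
Percent of tested transcripts called higher (red) or lower (blue) in share of the gene in KO/PEG versus WT/PEG, by place in the gene, for retained-intron transcripts, for all other transcripts, and for retained-intron transcripts with the 3′ weight of the library as a covariate. Near the 3′ end 60.5% of the retained-intron transcripts were higher, near the 5′ end 47.1% were lower, and with the covariate no bar exceeds 15.6%.

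The kept introns differed in length with the call. Among transcripts that hold whole introns, the 330 introns of those higher in KO/PEG had a median length of 135 bases, the 583 of those lower 430 bases and the 830 of those not called 203 bases. Length also followed the place, since introns near the 3′ end had a median of 178 bases and those near the 5′ end 358 bases. The parts of length and place were not tested apart. GT and AG ends made up 98.2% in the higher, 97.9% in the lower and 97.8% in the uncalled set.

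Among the 10 transcripts with most counts were those of housekeeping genes, and several of them held most of the counts of their gene in each group. The transcript of Gapdh (ENSMUST00000147954), a glycolytic enzyme, held between 74.9% and 82.1% (median 79.6%) of the gene in WT/PEG, between 76.1% and 86.9% (median 80.7%) in WT/NTZ, between 83.9% and 94.4% (median 91.8%) in KO/PEG and between 87.8% and 95.5% (median 93.02%) in KO/NTZ libraries. All 13 KO/PEG libraries were above all WT/PEG libraries. Its log2 odds rose by 1.52 (standard error 0.16, adjusted p = 2.45e-10, limma) with genotype and passed with the 3′ weight as a covariate too (adjusted p = 0.00118, limma). It keeps the 84-base intron printed above but has no private base.

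The transcript of Eef1g (ENSMUST00000135025), a subunit of a translation elongation factor, had 75.0% ± 7.52 (SD, n = 11) of its gene in WT/PEG and 87.0% ± 4.63 (SD, n = 13) in KO/PEG mice, and it rose (adjusted p = 0.000277, limma) but took the other sign with the covariate, at -0.38. That of Rps16 (ENSMUST00000155805), a ribosomal protein, did not pass, with 85.1% ± 3.66 (SD, n = 11) and 83.6% ± 2.07 (SD, n = 13). Its count was higher in KO/PEG (105 and 407 CPM, adjusted p = 1.5e-08, edgeR), together with the rest of its gene. The transcript of Atp5j (ENSMUST00000146103), a subunit of the mitochondrial ATP synthase, had 90.0% ± 1.14 (SD, n = 11) and 89.4% ± 1.76 (SD, n = 13) and did not pass either (adjusted p = 0.631, limma). Gapdh, Eef1g and Rps16 have near-identical pseudogene copies, so their counts are uncertain.

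Others of the 10 were divided. The share of the gene rose for Rps19 (ENSMUST00000130335), a ribosomal protein, from 29.05% ± 2.19 (SD, n = 11) to 40.2% ± 6.49 (SD, n = 13). It rose for Gnb2 (ENSMUST00000167225), a G protein subunit, from 44.6% ± 2.90 (SD, n = 11) to 64.3% ± 9.90 (SD, n = 13), and for Cox7b (ENSMUST00000155377), a subunit of cytochrome c oxidase, from 46.4% ± 2.31 (SD, n = 11) to 59.5% ± 6.75 (SD, n = 13). With the covariate these 3 took the other sign and did not pass. Ahcyl2 (ENSMUST00000149816), a relative of adenosylhomocysteinase, had 86.2% ± 2.16 (SD, n = 11) and 87.9% ± 3.97 (SD, n = 13) and did not pass in share, while its count fell from 259 to 141 CPM (adjusted p = 4.55e-05, edgeR). Per kilobase of transcript, the mean level over all libraries was 36.7 CPM for Ahcyl2 and 425 CPM for Rps19.

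The acid pump itself has a retained-intron transcript among these 10. That of Atp4a (ENSMUST00000165410), the catalytic subunit to which the missing beta subunit binds, held between 2.12% and 7.11% (median 4.66%) of the gene in WT/PEG, between 0.787% and 14.7% (median 10.9%) in KO/PEG and between 0% and 14.7% (median 11.3%) in KO/NTZ libraries. The KO values were spread widely and the difference did not pass (log2 odds 0.86, standard error 0.91, adjusted p = 0.435, limma). It passed with the covariate, at 4.66 (adjusted p = 0.0127, limma).

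The largest differences in share of the gene were gains in KO mice near the 3′ end. In 357 transcripts the mean rose by at least 20 percentage points, of which 269 were near the 3′ end, and in 19 by at least 50, of which all 19 were. With the covariate 27 of the 357 and 1 of the 19 were called higher. Gains and losses of these sizes were not counted over all transcripts tested, so they have no background. The clearest of the 10 largest was Copa (ENSMUST00000122845), a subunit of the coat of vesicles that return from the Golgi to the endoplasmic reticulum. Its transcript keeps the 189-base intron printed above and held between 0% and 14.4% (median 0.685%) of the gene in WT/PEG, between 0% and 26.8% (median 7.54%) in WT/NTZ, between 21.3% and 97.2% (median 53.6%) in KO/PEG and between 57.6% and 97.95% (median 75.7%) in KO/NTZ libraries. All 13 KO/PEG libraries were above all WT/PEG libraries. The log2 odds rose by 9.10 (standard error 1.11, adjusted p = 1.54e-08, limma), and its count rose from 4.59 to 95.6 CPM. It has no private base, so its value rests on the division of shared reads.

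Ephb3, a receptor for ephrin ligands that guides the position of cells in the gut epithelium, had a transcript (ENSMUST00000159575) with the 104-base intron printed above at 8.90% ± 6.47 (SD, n = 11) of the gene in WT/PEG, 17.9% ± 16.0 (SD, n = 9) in WT/NTZ, 65.5% ± 19.3 (SD, n = 13) in KO/PEG and 80.9% ± 12.7 (SD, n = 11) in KO/NTZ mice. The lowest KO/PEG library was at 44.5% and the highest WT/PEG library at 21.1%. Usp36 (ENSMUST00000141647), a deubiquitinase of the nucleolus, rose from 14.1% ± 7.09 (SD, n = 11) to 70.3% ± 19.8 (SD, n = 13), and Plch1 (ENSMUST00000159374), a phospholipase C, from 14.5% ± 11.99 (SD, n = 11) to 68.8% ± 19.3 (SD, n = 13). In these 3 all KO/PEG libraries were above all WT/PEG libraries. Nfrkb (ENSMUST00000128375), a subunit of a chromatin remodeller, rose from 7.92% ± 7.81 (SD, n = 11) to 67.0% ± 23.6 (SD, n = 13), with 12 of 13 KO/PEG libraries above all WT/PEG libraries.

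None of Copa, Ephb3, Usp36, Plch1 and Nfrkb passed with the 3′ weight as a covariate, where the adjusted p was 0.105, 0.64, 0.47, 0.106 and 0.177 (limma). Slc2a3 (ENSMUST00000168704), a glucose transporter, was the one of the 19 that did (adjusted p = 0.0324, limma). It had 26.4% ± 21.2 (SD, n = 11) of the gene in WT/PEG and 91.5% ± 17.2 (SD, n = 13) in KO/PEG mice, at 0.802 and 2.85 CPM. The transcript of Hba-a1 (ENSMUST00000142555), an alpha globin chain of red blood cells, had 35.2% ± 27.2 (SD, n = 11) and 93.6% ± 10.4 (SD, n = 13). Its gene has a near-identical neighbour in the genome, so this value is uncertain.

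Of losses, 30 reached 20 percentage points and 2 reached 50, also without a background. Slc15a3 (ENSMUST00000138263), a peptide transporter of lysosomes, fell from 84.8% ± 10.2 (SD, n = 11) to 30.6% ± 24.7 (SD, n = 13), with a log2 odds difference of -4.77 (adjusted p = 0.00014, limma), and it also passed with the covariate (adjusted p = 0.00251, limma). A private stretch of 1447 bases of this transcript lies over Tmem132a on the opposite strand, and whether the counting used the strand is not given in the sources used here. H2-Q10 (ENSMUST00000174589), a class I histocompatibility gene with close paralogs, fell from 75.0% ± 19.7 (SD, n = 11) to 17.0% ± 23.9 (SD, n = 13) of its gene, while its own count did not pass (1.57 and 1.92 CPM, adjusted p = 0.514, edgeR). KO/PEG replicate 9 was at 91.9% for H2-Q10, above the median of 73.0% in WT/PEG, and without it the KO/PEG mean was 10.8% ± 8.28 (SD, n = 12).

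**Figure D4:**
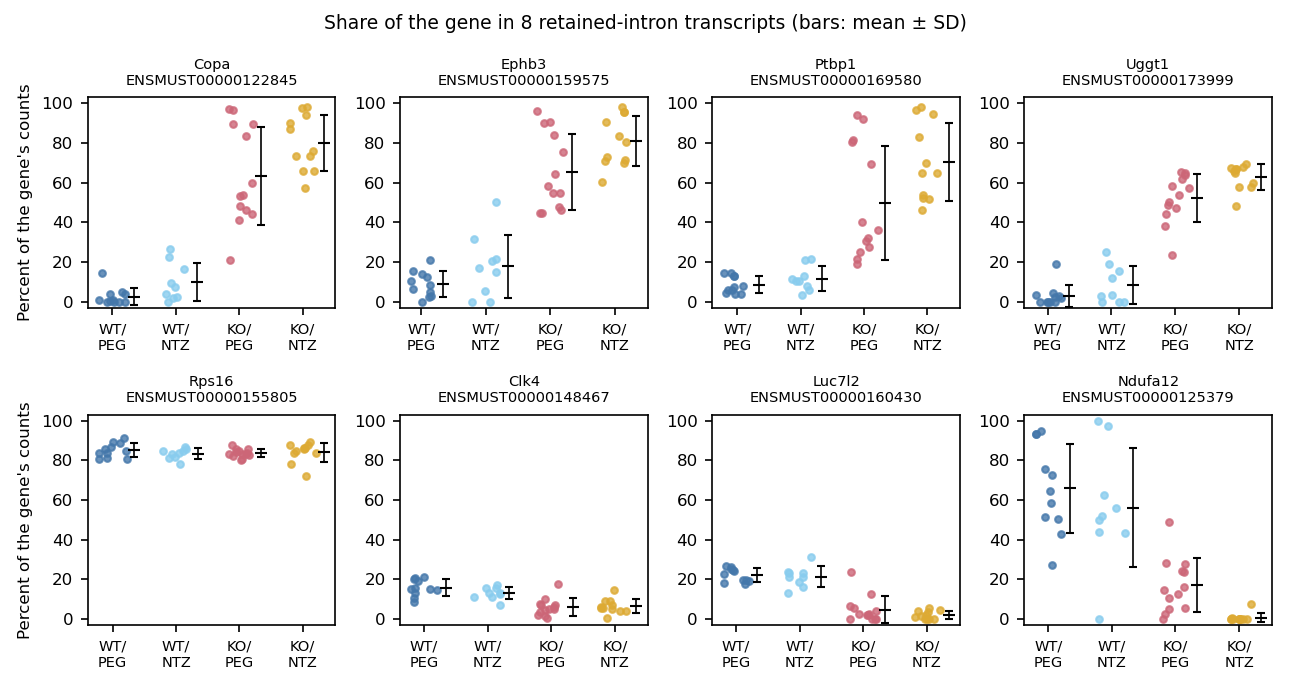
Percent of the gene's counts in 8 retained-intron transcripts, with 1 point per library and the mean ± SD beside each group. Copa, Ephb3, Ptbp1 and Uggt1 lie higher in KO than in WT mice, Rps16 lies near 84% in each group, and Clk4, Luc7l2 and Ndufa12 lie lower in KO mice.

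The next 3 transcripts lie outside the rule for named genes and are given because they passed with large differences both with and without the covariate, and they were chosen after their values were seen. Uggt1, a sensor of glycoprotein folding in the endoplasmic reticulum, had an internal transcript (ENSMUST00000173999) at 0% to 19.1% (median 2.11%) of the gene in WT/PEG and 23.4% to 65.3% (median 53.7%) in KO/PEG libraries, without overlap. Its log2 odds rose by 7.32 (adjusted p = 5.93e-08, limma) and by 4.52 with the covariate (adjusted p = 0.0323, limma). Tm9sf4 (ENSMUST00000149390), a membrane protein of endosomes, rose from 2.26% ± 3.45 (SD, n = 11) to 51.1% ± 24.3 (SD, n = 13). Supt6 (ENSMUST00000108314), a factor of transcription elongation, rose from 22.5% ± 11.02 (SD, n = 11) to 71.9% ± 13.5 (SD, n = 13), with 12 of 13 KO/PEG libraries above all WT/PEG libraries. For Tm9sf4 and Supt6 the adjusted p was 0.0332 and 0.0208 (limma) with the covariate.

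In genes of splicing factors, more retained-intron transcripts lost than gained share. Of 50 such transcripts in 25 genes, 9 were higher and 31 lower in KO/PEG, with a median log2 odds difference of -1.48. Over all transcripts tested 26% were higher and 27% lower, with a median of -0.09. Of the 50, 8 were near the 3′ end, 10 near the 5′ end, 27 internal and 5 end to end. With the covariate 6 were higher and 2 lower, beside 8.23% and 4.73% over all transcripts in that fit. These counts describe the list, and no set test was run on it.

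The kinases that phosphorylate SR proteins, the serine- and arginine-rich activators of splicing, were among those lower. The transcript of Clk4 (ENSMUST00000148467), which keeps the 191-base intron printed above, held between 8.53% and 21.2% (median 15.3%) of the gene in WT/PEG and between 0.766% and 17.9% (median 5.31%) in KO/PEG libraries. In 11 of 13 KO/PEG libraries it was below all WT/PEG libraries, and the log2 odds fell by 1.82 (standard error 0.37, adjusted p = 9.53e-05, limma). That of Clk1 (ENSMUST00000129577) fell from 11.3% ± 4.49 (SD, n = 11) to 3.22% ± 4.13 (SD, n = 13), or to 2.17% ± 1.75 (SD, n = 12) without KO/PEG replicate 9. With the covariate neither passed, and Clk1 took the other sign, at 0.64.

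SR protein genes themselves showed both directions. Srsf6 (ENSMUST00000193611) fell from 16.7% ± 5.12 (SD, n = 11) to 5.33% ± 6.45 (SD, n = 13) of its gene, or to 3.69% ± 2.68 (SD, n = 12) without KO/PEG replicate 9. In Srsf3 a transcript near the 5′ end (ENSMUST00000147265) fell from 11.4% ± 4.23 (SD, n = 11) to 5.50% ± 4.53 (SD, n = 13), and an internal one (ENSMUST00000150157) rose from 36.2% ± 1.97 (SD, n = 11) to 48.8% ± 10.2 (SD, n = 13). Srrm2 (ENSMUST00000190568), a large scaffold of nuclear speckles, rose from 5.44% ± 1.74 (SD, n = 11) to 19.8% ± 4.45 (SD, n = 13), with all 13 KO/PEG libraries above all WT/PEG libraries, and it passed with the covariate (adjusted p = 0.00616, limma). Srsf6 and the internal Srsf3 transcript took the other sign with the covariate, at 0.80 and -0.50.

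Genes of the hnRNP group, which coat new RNA and repress or shift splice sites, held some of the gains. In Hnrnpk, the transcript with the 78-base intron printed above (ENSMUST00000177051) held between 9.42% and 16.4% (median 12.7%) of the gene in WT/PEG, between 10.6% and 23.3% (median 16.1%) in WT/NTZ, between 21.5% and 58.5% (median 31.4%) in KO/PEG and between 31.3% and 61.9% (median 38.3%) in KO/NTZ libraries. KO/PEG and WT/PEG did not overlap (log2 odds 1.84, standard error 0.24, adjusted p = 6.25e-08, limma). Another internal transcript of Hnrnpk (ENSMUST00000176359) fell from 9.53% to 1.76% and has no private base.

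Hnrnpl (ENSMUST00000174526) rose from 13.8% ± 2.44 (SD, n = 11) to 37.4% ± 12.7 (SD, n = 13), and Ptbp1 (ENSMUST00000169580), a repressor of exons with pyrimidine tracts beside them, from 8.62% ± 4.27 (SD, n = 11) to 49.97% ± 28.7 (SD, n = 13). In both, all 13 KO/PEG libraries were above all WT/PEG libraries. With the covariate Hnrnpl, at -0.093, and Ptbp1, at -1.20, took the other sign and did not pass.

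Rbm5, a regulator of splice site choice in cell death genes, showed both directions in a single gene. Its transcript near the 3′ end (ENSMUST00000194801) held between 4.40% and 31.1% (median 14.97%) of the gene in WT/PEG and between 30.3% and 94.6% (median 64.3%) in KO/PEG libraries. Its end-to-end transcript (ENSMUST00000183307) held between 7.18% and 31.4% (median 14.9%) in WT/PEG and between 0% and 26.2% (median 2.46%) in KO/PEG libraries. The log2 odds differences were 4.06 (standard error 0.49, adjusted p = 1.38e-08, limma) and -2.89 (standard error 0.60, adjusted p = 0.000122, limma). Luc7l2 (ENSMUST00000160430), which acts with the U1 particle at the 5′ splice site, fell from 22.2% ± 3.41 (SD, n = 11) to 4.69% ± 6.71 (SD, n = 13). Prpf38b (ENSMUST00000197805), a spliceosome protein whose 84-base intron is printed above, fell from 5.11% ± 2.998 (SD, n = 11) to 0.872% ± 1.26 (SD, n = 13). None of these 4 passed with the covariate, and Luc7l2 and the end-to-end Rbm5 transcript took the other sign, at 0.71 and 0.43. Without KO/PEG replicate 9 the KO/PEG mean was 3.10% ± 3.68 (SD, n = 12) for Luc7l2 and 2.48% ± 1.68 (SD, n = 12) for the end-to-end Rbm5 transcript. For Prpf38b it was 0.642% ± 0.985 (SD, n = 12).

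Detained introns are those known to be held in the nucleus until they are spliced. Of 15 retained-intron transcripts in 9 genes known for them, 0 were higher and 6 lower by limma, where 8 had p under 0.05 before adjustment, with a median log2 odds difference of -1.37, beside 26% higher and 27% lower over all transcripts. Ogt (ENSMUST00000150161), the enzyme that attaches N-acetylglucosamine to nuclear and cytosolic proteins, fell from 8.43% ± 2.93 (SD, n = 11) to 1.52% ± 2.07 (SD, n = 13), with 12 of 13 KO/PEG libraries below all WT/PEG libraries, and to 0.987% ± 0.779 (SD, n = 12) without KO/PEG replicate 9. Ccnl2 (ENSMUST00000139066), a cyclin of nuclear speckles, fell from 48.2% ± 6.22 (SD, n = 11) to 27.3% ± 10.4 (SD, n = 13) but has no private base. With the covariate 3 of the 15 were higher and 1 lower, beside 8.23% and 4.73% over all transcripts in that fit. Neither Ogt nor Ccnl2 passed there.

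Few genes of gastric secretion had such transcripts, and of 5 tested 1 was higher and 3 lower, beside 26% and 27% over all transcripts. With the covariate 1 was higher and 2 lower, beside 8.23% and 4.73% over all transcripts in that fit. Slc9a4 (ENSMUST00000192454), a sodium and proton exchanger of parietal cells, rose from 11.7% ± 3.49 (SD, n = 11) to 46.7% ± 17.1 (SD, n = 13) of its gene, and all 13 KO/PEG libraries were above all WT/PEG libraries (log2 odds 2.78, standard error 0.32, adjusted p = 4.05e-09, limma). It did not pass with the covariate (adjusted p = 0.127, limma). Xbp1 (ENSMUST00000145588), a transcription factor of secretory cells, fell from 1.53% ± 0.53 (SD, n = 11) to 0.670% ± 0.98 (SD, n = 13), or to 0.409% ± 0.296 (SD, n = 12) without KO/PEG replicate 9, and took the other sign with the covariate, at 0.72, where it did not pass. Of 2 in neuroendocrine genes, Eno2 (ENSMUST00000125436) was lower, at 35.6% in WT/PEG and 17.6% in KO/PEG and with no private base, and Uchl1 did not pass. With the covariate Eno2 took the other sign, at 0.95, and did not pass.

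Of 9 transcripts in genes of the endoplasmic reticulum, 4 were lower and 0 higher by limma, where 5 had p under 0.05 before adjustment, beside 27% lower and 26% higher over all transcripts. With the covariate 0 were lower and 1 higher, beside 4.73% and 8.23% over all transcripts in that fit. Manf (ENSMUST00000160978), a secreted protein of the stress response, fell from 7.36% ± 1.92 (SD, n = 11) to 4.49% ± 1.56 (SD, n = 13) and took the other sign with the covariate, at 0.30, where it did not pass. The transcript of Calr (ENSMUST00000154774), a calcium-binding chaperone, held 23.6% ± 2.02 (SD, n = 11) in WT/PEG and 12.04% ± 8.99 (SD, n = 13) in KO/PEG mice, did not pass (adjusted p = 0.0516, limma), passed as lower without KO/PEG replicate 9 (adjusted p = 0.0394, limma), and passed in the other direction with the covariate, at 7.11 (adjusted p = 0.00619, limma).

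Of 26 transcripts in mitochondrial genes, 5 were higher and 7 lower, beside 26% and 27% over all transcripts. With the covariate 5 were higher and 3 lower, beside 8.23% and 4.73% over all transcripts in that fit. Cox4i1 (ENSMUST00000181026), a subunit of cytochrome c oxidase, had a transcript near the 3′ end at 0% to 1.43% of the gene in WT/PEG and at 7.39% to 37.3% in KO/PEG libraries. Sdha (ENSMUST00000161434), a subunit of succinate dehydrogenase, rose from 2.17% to 19.9%, and Acadm (ENSMUST00000196188), which oxidises fatty acids of medium length, fell from 3.50% to 0.158% but has no private base. All 3 passed with the covariate (adjusted p of 0.0363, 0.0291 and 6.00e-05, limma). In Ndufs1, a subunit of complex I, a transcript near the 3′ end (ENSMUST00000187835) rose from 0.292% ± 0.32 (SD, n = 11) to 12.4% ± 13.1 (SD, n = 13) and one near the 5′ end (ENSMUST00000185827) fell from 1.03% ± 0.45 (SD, n = 11) to 0.427% ± 0.65 (SD, n = 13), or to 0.255% ± 0.198 (SD, n = 12) without KO/PEG replicate 9.

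Counts of the transcripts themselves, relative to the library, were tested with edgeR over 30782 transcripts, of which 2648 were retained-intron transcripts. Between KO/PEG and WT/PEG mice, 938 had a higher and 390 a lower count in KO/PEG, against a background of 26.5% higher and 27% lower (53.5% in either direction), and the median log2 fold change was 0.26 against -0.12 for all transcripts tested. Of the 844 higher in share, 703 were also higher in counts, and of the 657 lower in share 316 were also lower. Without KO/PEG replicate 9 there were 967 higher and 504 lower. With the 3′ weight as a covariate there were 282 higher and 66 lower, against 10.9% higher and 4.26% lower (15.2% in all) over all transcripts in that fit.

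The smallest p-values in counts included genes whose level as a whole differed with genotype. Lgals4 (ENSMUST00000137468), a galectin of the intestinal epithelium, had 5.93 CPM in WT/PEG and 214 CPM in KO/PEG mice (log2 fold change 5.17, standard error 0.46, adjusted p = 3.8e-12, edgeR), and its share of the gene rose from 6.82% ± 1.76 (SD, n = 11) to 28.6% ± 17.5 (SD, n = 13). Krt7 (ENSMUST00000131069), a keratin of ductal epithelium, had 10.01 and 175 CPM, with a share of 47.3% ± 11.9 (SD, n = 11) and 61.4% ± 7.48 (SD, n = 13). C4b (ENSMUST00000173669), a complement component, had 2.76 and 41.7 CPM. Vars2 (ENSMUST00000165787), the mitochondrial valyl-tRNA synthetase, went the other way, with 97.0 and 10.8 CPM (log2 fold change -3.16, standard error 0.18, adjusted p = 6.19e-18, edgeR), while its share of 64.0% ± 4.33 (SD, n = 11) and 59.4% ± 18.0 (SD, n = 13) did not pass.

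Others combined a change in count with one in share. Ncl (ENSMUST00000188682), nucleolin, had 7.43 and 63.4 CPM, and its share rose from 3.27% ± 1.41 (SD, n = 11) to 28.3% ± 15.0003 (SD, n = 13), with all 13 KO/PEG libraries above all WT/PEG libraries and an adjusted p of 0.0223 (limma) with the covariate. Agrn (ENSMUST00000154494), the proteoglycan agrin, keeps the 82-base intron printed above and had 12.6 and 27.7 CPM, with a share of 23.7% ± 4.37 (SD, n = 11) and 65.8% ± 18.0 (SD, n = 13). Pcnx3 (ENSMUST00000146638), a membrane protein, rose in share from 23.1% ± 8.30 (SD, n = 11) to 74.6% ± 17.2 (SD, n = 13), Gcc2 (ENSMUST00000162965), a tether of the Golgi, from 13.8% ± 8.56 (SD, n = 11) to 60.2% ± 22.5 (SD, n = 13), and Cnot3 (ENSMUST00000129973), a subunit of the complex that shortens poly(A) tails, from 11.9% ± 5.05 (SD, n = 11) to 47.1% ± 13.1 (SD, n = 13). Of these 3, Cnot3 passed with the covariate (adjusted p = 0.00301, limma). Lgals4, C4b, Agrn and Gcc2 took the other sign in share with the covariate, at -0.51, -0.14, -0.58 and -0.24.

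Between NTZ and PEG in KO mice, the share of the gene differed for 2 of 2577 transcripts, against a background of 0.059% (0.0268% higher and 0.0322% lower), and 371 had p under 0.05 before adjustment. With diffSpliceDGE of edgeR there were 55, of which 3 were higher and 52 lower, and among animals numbered below 100 there were 0. Pdlim7 (ENSMUST00000153230), an adaptor between actin and kinases, held between 24.9% and 45.03% (median 34.5%) of its gene in KO/PEG and between 43.8% and 66.5% (median 48.3%) in KO/NTZ libraries, and 41.9% ± 4.62 (SD, n = 11) in WT/PEG and 43.6% ± 5.82 (SD, n = 9) in WT/NTZ mice. Its log2 odds rose by 0.90 (standard error 0.17, adjusted p = 0.0367, limma) with NTZ. It was no longer called with the 3′ weight as a covariate (0.64, adjusted p = 0.176, limma), by diffSpliceDGE (adjusted p = 0.911), or among animals numbered below 100 (adjusted p = 0.238, limma). Its count also rose, from 29.96 ± 11.9 CPM (SD, n = 13) to 52.1 ± 16.2 CPM (SD, n = 11).

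Ndufa12 (ENSMUST00000125379), a subunit of complex I, was lower in share with NTZ. Its transcript near the 5′ end held between 27.5% and 94.8% (median 64.5%) of the gene in WT/PEG, 56.0% ± 29.9 (SD, n = 9) in WT/NTZ, between 0.0241% and 49.1% (median 14.8%) in KO/PEG and between 0% and 7.75% (median 0%) in KO/NTZ libraries. With NTZ in KO mice its log2 odds fell by 5.75 (standard error 1.13, adjusted p = 0.0367, limma). Without KO/PEG replicate 9 (adjusted p = 0.0841, limma) and with the covariate (adjusted p = 0.0893, limma) it was no longer called. The study lists this transcript from the same libraries, so the call is not independent of it.

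In counts, NTZ in KO mice was accompanied by 8 higher and 42 lower transcripts of 2648, against a background of 2.56% (0.666% higher and 1.9% lower). Of the 42, 17 were at 0 in all KO/NTZ libraries, 39 had a mean under 1 CPM there, and 31 were also lower in KO/PEG than in WT/PEG. By place 3 lay near the 3′ end, 8 near the 5′ end, 28 internal and 3 from end to end. With KO groups alone in the fit 4 transcripts were called, 3 higher and 1 lower, so most were no longer lower. With the 3′ weight as a covariate 6 were called, 1 higher and 5 lower. Among animals numbered below 100 there were 0 by edgeR, and DESeq2 called 99, 24 higher and 75 lower. The shares called over all transcripts in these fits are not given here. The KO/NTZ libraries had a higher 3′ weight than the KO/PEG libraries, at 85.9 and 81.2, and the part of that difference was not tested.

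The 10 smallest p-values included transcripts at or near 0 after NTZ. Prpf19 (ENSMUST00000191552), a ubiquitin ligase of the spliceosome, had 1.75 to 3.46 CPM in WT/PEG, 0.538 to 2.77 CPM in WT/NTZ, 0 to 1.95 CPM (median 0.302) in KO/PEG and 0 CPM in all 11 KO/NTZ libraries. Maged1 (ENSMUST00000153386), an adaptor of cell death signalling that keeps the 218-base intron printed above, had 4.58 to 16.5 CPM in WT/PEG and 0 to 23.04 CPM (median 0) in KO/PEG libraries and 0 CPM in all KO/NTZ libraries, and has no private base. Its KO/PEG mean was 2.71 CPM, and 1.01 CPM without replicate 9. A value of 0 here is an estimated count that rounds to 0. In both the KO/PEG libraries were already low, most near the signal of 3 counts, and no fold change of KO/NTZ against KO/PEG is given for them. Capns1 (ENSMUST00000141851), the small subunit of calpain, had a mean of 17.6 CPM (SD 2.36) among the 11 WT/PEG libraries, of 1.44 CPM (SD 2.24) among the 13 KO/PEG and of 0.0591 CPM (SD 0.11) among the 11 KO/NTZ libraries. Without KO/PEG replicate 9 its KO/PEG mean was 0.987 CPM (SD 1.59, n = 12). Arfgef1 (ENSMUST00000142497), an activator of vesicle traffic, had 2.93 CPM in WT/PEG, 0.558 CPM in KO/PEG and 0 CPM in all KO/NTZ libraries.

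Tfrc, the transferrin receptor that takes up iron, stood apart from these because its transcript was abundant. The transcript near the 3′ end (ENSMUST00000128285) had 28.1 to 70.3 CPM (median 36.96) in WT/PEG, 37.3 to 66.6 CPM (median 48.0) in WT/NTZ, 73.6 to 157 CPM (median 102) in KO/PEG and 41.0 to 67.1 CPM (median 51.8) in KO/NTZ libraries. All KO/PEG libraries were above all others. The log2 fold change with NTZ in KO mice was -0.94 (standard error 0.15, adjusted p = 0.000151, edgeR). Its share of the gene did not follow, with 31.3% ± 5.85 (SD, n = 11) in WT/PEG, 42.3% ± 12.2 (SD, n = 9) in WT/NTZ, 82.1% ± 13.0 (SD, n = 13) in KO/PEG and 89.0% ± 5.67 (SD, n = 11) in KO/NTZ mice (adjusted p = 0.557 for NTZ in KO mice, limma). The study lists this transcript as well. It also lists that of Mmp12 (ENSMUST00000148005), a protease of macrophages, which had 2.50 CPM in KO/PEG and 1.73 CPM in KO/NTZ mice and did not pass for NTZ (adjusted p = 0.268, edgeR).

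Among the 8 that rose with NTZ were those of Uchl1 and Krit1. Uchl1 (ENSMUST00000176015), a ubiquitin hydrolase of neurons and endocrine cells, went from a mean of 4.21 CPM (SD 1.65, n = 13) without NTZ to 9.54 CPM (SD 3.24, n = 11) with it in KO mice (adjusted p = 0.000423, edgeR), and 6.30 CPM in both WT groups. Krit1 (ENSMUST00000200004), a protein of endothelial junctions, had 33.1 ± 5.61 and 43.9 ± 5.28 CPM (adjusted p = 0.00347, edgeR). Neither differed in share of the gene by the test (adjusted p of 0.506 and 0.231, limma).

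**Figure D5:**
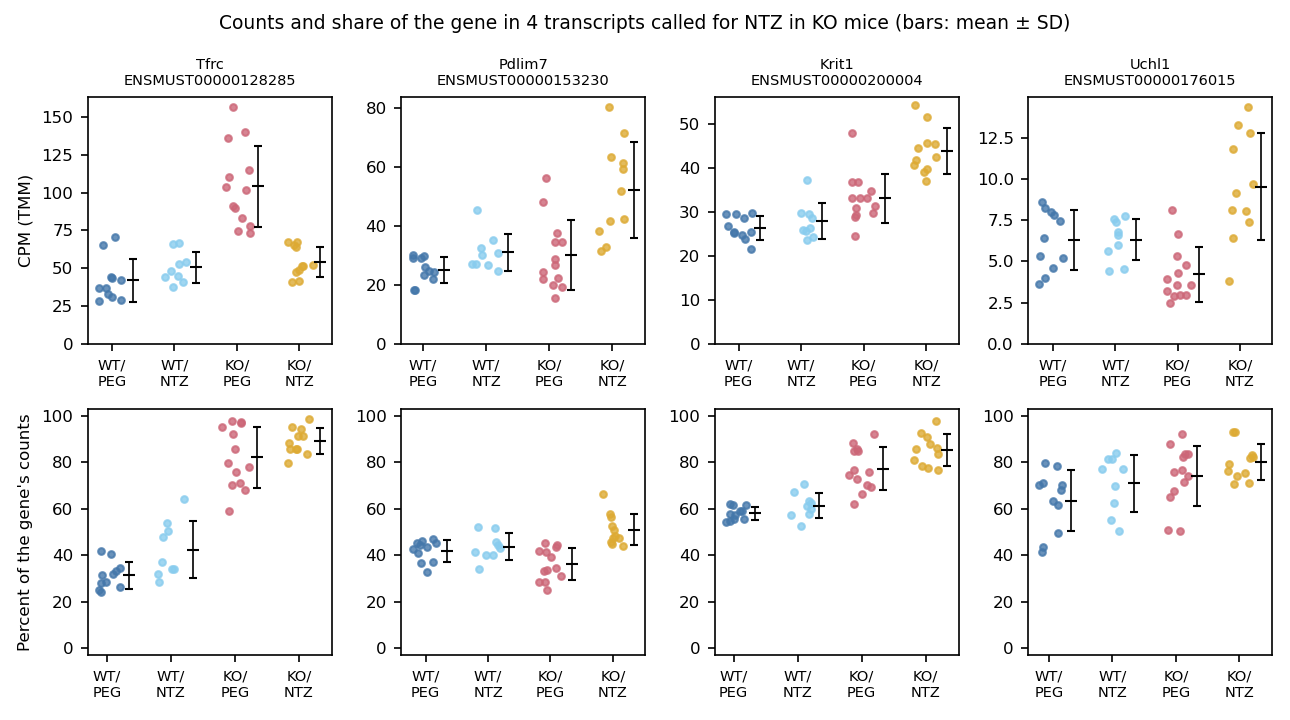
Count in CPM (top row) and percent of the gene's counts (bottom row) of 4 retained-intron transcripts called for NTZ in KO mice, with 1 point per library and the mean ± SD beside each group. Tfrc falls in count from KO/PEG to KO/NTZ (104 to 54.3 CPM) while its share stays at 82.1% and 89.0%, and Pdlim7 is higher in KO/NTZ on both scales.

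In WT mice NTZ changed the share of the gene of 0 of 2577 transcripts by limma, against a background of 0.00536%, where 156 had p under 0.05 before adjustment, and diffSpliceDGE called 2. In counts 2 were higher and 0 lower, against a background of 0.195% (0.192% higher and 0.00325% lower). They were Ift20 (ENSMUST00000152016), a protein of cilia and the Golgi, with 0.039 CPM in WT/PEG and 0.578 CPM in WT/NTZ, and Ccl6 (ENSMUST00000138145), a chemokine, with 0.678 and 2.17 CPM. The WT/PEG level of Ift20 is under the signal of 3 counts. They were named after their values were seen, and DESeq2 called 10.

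The effect of NTZ in KO mice minus that in WT mice was tested too. For share of the gene it passed in 0 transcripts by limma, where 123 had p under 0.05 before adjustment and the background was 0%, and in 22 by diffSpliceDGE. For counts it passed in 5, all lower, of which 4 are named here, against a background of 0.322% (0.026% higher and 0.296% lower). Tfrc had a difference of -1.21 on the log2 scale (standard error 0.21, adjusted p = 0.00886, edgeR). The other 3 named were Prpf19, Maged1 and Gtf2h3 (ENSMUST00000153436), a subunit of a general transcription factor, all at 0 in all KO/NTZ libraries.

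The genotype was compared again between the NTZ groups. All 44 libraries entered each fit, so this comparison is not independent of the first. The 3′ weight differed with genotype here as well, at 69.4 in WT/NTZ and 85.9 in KO/NTZ libraries. In KO/NTZ versus WT/NTZ 895 transcripts were higher and 712 lower in share of the gene, against a background of 59.8% (28% higher and 31.9% lower). Of those higher, 755 were higher in both comparisons, which is 89.5% of the list in PEG mice and 84.4% of that in NTZ mice. Of those lower, 551 were in both, 83.9% and 77.4% of the lists, and 0 were called in opposite directions by limma. The overlap over all transcripts is not given here. Near the 3′ end 67.5% were higher and 6.80% lower, and near the 5′ end 11.7% were higher and 47.9% lower. In counts 944 were higher and 528 lower, against a background of 56.8% (24.6% higher and 32.2% lower). With the 3′ weight as a covariate 122 of 2577 were called for share (84 higher and 38 lower). For counts 116 of 2650 were called (87 higher and 29 lower). The share called over all transcripts in that fit is not given here, so these counts are not set against a background.

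The genes that carry out splicing and RNA decay were compared with counts summed per gene, where 37.4% of all 14911 genes tested were higher and 37.1% lower (74.5% in all) in KO/PEG than in WT/PEG. Of 38 core spliceosome genes 25 were higher and 6 lower, with a median log2 fold change of 0.39 against -0.0049 over all genes. Snrpe, a Sm core protein, had 29.98 and 68.0 CPM, and Snrnp200, the helicase that activates the spliceosome, 58.2 and 36.4 CPM. Of 11 genes of the minor spliceosome 7 were higher and 3 lower, and of 22 genes of nuclear decay and export 14 were higher and 6 lower. Of 12 SR protein genes 3 were higher and 4 lower, of 23 hnRNP genes 6 and 12 (median log2 fold change -0.26), of 9 splicing kinases 3 and 3, and of 15 genes of nonsense-mediated decay 6 and 6. The 1 nuclear noncoding RNA tested, Snhg11, was higher. In all, 105 of 131 were called.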

How the data were processed

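Each library was made by the authors from gastric corpus RNA with the TruSeq Stranded mRNA kit and sequenced in single reads of 75 cycles. The estimated counts per transcript were deposited by the authors, made with kallisto 0.42.4 on GRCm38 transcripts; whether strand was used and which annotation release is not given in the sources used here. Types and coordinates came from GENCODE vM21, and 92372 of the 94080 transcripts matched. Every column of the table was mapped to a library (0 columns not used).

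Counts were rounded and tested with edgeR 4.0.16 quasi-likelihood (TMM, filterByExpr with a minimum count of 10 and a total of 15). Shares of the gene were tested with limma 3.58.1 (trend, robust) on log2 odds with 0.5 added, for genes with a mean of at least 20 counts in each group. Such a gene also had to hold 2 or more transcripts with a mean of at least 10 counts. All 4 groups entered each fit, and Benjamini-Hochberg adjustment ran over all transcripts tested. R 4.3.3, DESeq2 1.42.0, Python 3.11.15, pandas 2.3.3 and matplotlib 3.10.9 were used. The labels do not give separate animals for each library (2 WT/PEG libraries share an animal number, and number 110 occurs in both KO groups), so p-values measure the spread between libraries. There were 13 KO/PEG libraries, more than the animals the study describes. On simulated KO/PEG versus WT/PEG data, 54% of transcripts changed by 2 on the log2 scale were recovered in counts (29195 tested) and 48.9% in share (18690 tested). Of those changed by 1, 12.1% were recovered in counts and 7.37% in share. Few transcripts were changed in the simulation (99 by 1 and 100 by 2 in counts), while 53.5% were called in the data. The adjusted threshold was therefore stricter in the simulation, and these rates do not carry over to that comparison.

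The members, gene lists and tests were chosen with earlier results of these data known. Named were the 10 transcripts with most counts, the 10 called in share with the largest difference and the 10 called in counts with the smallest p (genotype in PEG mice, NTZ in KO mice), any called in share for the other NTZ comparisons, those in listed genes and those the study lists; of these, examples are given, and some are not reported here. The fit with the 3′ weight, the fit without KO/PEG replicate 9, the sum without transcripts near the 3′ end, the distances of 50 and 1000 bases to an end, and the repeats by place and for single transcripts were added after the data were seen. Intervals and the signal of 3 counts cover counting error only.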

Additional observations from a re-analysis of the deposited data

Results flagged for a closer look

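In 6 of 75 comparisons of the 9 WT/NTZ libraries with each other, 1 library lay far from the rest (gap over range above 0.493, which chance gives in about 1 in 20 groups). Each time it was the highest value. A library reached 55.4% of the gene for Plch1 (ENSMUST00000159374), where the group median was 21.7%, and 17.0% for Lgals4 (ENSMUST00000137468), where it was 6.49%. For Srsf3 (ENSMUST00000147265) it reached 19.2% against a median of 7.12%, and for Ndufs1 (ENSMUST00000187835) 1.46% against 0.324%. It reached 26.4% against 14.8% for Cnot3 (ENSMUST00000129973) and 38.1% against 29.1% for Rps19 (ENSMUST00000130335).

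For the following 4 transcripts NTZ changed the counts differently by genotype (edgeR, difference on the log2 scale). It was -1.21 for Tfrc (ENSMUST00000128285, adjusted p = 0.00886), -5.47 for Prpf19 (ENSMUST00000191552, adjusted p = 0.0251), -5.96 for Gtf2h3 (ENSMUST00000153436, adjusted p = 0.036) and -7.96 for Maged1 (ENSMUST00000153386, adjusted p = 0.0473). The last 3 were at 0 in all KO/NTZ libraries, so their values depend on the prior count and are no bounds.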

How the results depend on the processing

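No paired analysis was possible because the groups compared share no more than 1 animal number, 110 in both KO groups. With the 3′ weight as a covariate, transcripts called fell from 1328 to 348 in counts and from 1501 to 349 in share for KO/PEG versus WT/PEG, from 1472 to 116 and from 1607 to 122 for KO/NTZ versus WT/NTZ, and from 50 to 6 and from 2 to 0 for NTZ in KO mice. They were 5 in place of 2 in counts for NTZ in WT mice and 3 in place of 5 for the difference in NTZ effect. The percentage higher near the 3′ end went from 60.5 to 5.58 and that lower near the 5′ end from 47.1 to 3.97. The log2 odds took the other sign for Eef1g (-0.38), Rbm5 ENSMUST00000183307 (0.43), Lgals4 (-0.51), Agrn (-0.58), C4b (-0.14), Clk1 (0.64), Srsf3 ENSMUST00000150157 (-0.50), Srsf6 (0.80), Luc7l2 (0.71), Ptbp1 (-1.20), Hnrnpl (-0.093), Xbp1 (0.72), Manf (0.30), Eno2 (0.95), Rps19 (-0.20), Cox7b (-0.40), Gcc2 (-0.24), Gnb2 (-0.41) and Calr (7.11). Of 79 results on single transcripts 64 were called, of which 46 lost the call and 18 kept it, and 3 of the other 15 gained one. The cause was not tested, and genotype and 3′ weight cannot be told apart. diffSpliceDGE called 607 (KO/PEG versus WT/PEG), 55 (NTZ in KO), 2 (NTZ in WT), 752 (KO/NTZ versus WT/NTZ) and 22 (difference) in share, with 39.3% higher near the 3′ end and 13.4% lower near the 5′ end. DESeq2 called 99 (NTZ in KO), 10 (NTZ in WT) and 14 (difference) in counts. The share called over all transcripts is not given for diffSpliceDGE and DESeq2, so their counts are not set against a background. Within 1 animal number range, NTZ in KO mice gave 0 in counts and 0 in share, and NTZ in WT mice 6 and 2. With only the groups compared NTZ gave 4 in KO (3 higher and 1 lower) and 0 in WT mice. For NTZ in WT mice in counts, DESeq2 size factors gave 1, no filter 0, the WT/PEG pair with 1 animal number summed 1 and leaving out the libraries numbered 110 gave 0, and in share a gene mean of 100 gave 1 and division by length 1. For the difference, no filter gave 3 and the summed pair 3. For share with NTZ in KO mice, 2 counts added gave 1 and leaving out the libraries numbered 110 gave 6. Without KO/PEG replicate 9 it gave 1, and the call of Ndufa12 was lost. Against the counts of their own genes, the ratio of shares was 1.57 in PEG and 1.64 in NTZ mice, and without transcripts near the 3′ end 1.55 and 1.54, where it was 2.06 and 2.12. The difference in NTZ effect needs all 4 groups and could not be fitted with 1 number range or only the groups compared. The other settings kept the direction and the side of the threshold of these counts. DESeq2 size factors moved the median of all transcripts from -0.12 to -0.19 (KO/PEG versus WT/PEG). Depth limits transcripts near 3 counts, worth up to 0.495 CPM.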
